A study of Mus musculus with 12 samples.

Results

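The globin genes carry the oxygen-binding chains of haemoglobin. The 8 genes described here, chosen by symbol and not by any measured value, were the adult alpha chain copies Hba-a1 and Hba-a2, the adult beta chain genes Hbb-b1 and Hbb-b2, the embryonic genes Hba-x, Hbb-bh1 and Hbb-y, and Ahsp, the chaperone that holds free alpha chains. Of the 24014 genes kept, 7 members were found, each as 1 transcript, and Ahsp was not analysed here. An adjusted p was deposited for the 4 adult genes and for none of the 3 embryonic genes.

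RNA-seq of hematopoietic stem and progenitor cells (HSPCs) from C57BL/6 mice gave 12 libraries in 4 genotype groups of 3, labelled WT, Smc3, Npm1 and Double. All groups, WT included, received pIpC, an inducer of interferon that is widely used to switch on an Mx1-driven Cre: 7 doses at 1 mg/mL from an age of 4 to 6 weeks. Cells were taken 4 to 6 weeks after treatment by lysing red cells and depleting lineage-positive cells. The labels name no allele, Cre driver, zygosity or sex, and leave unsaid if a group's 3 libraries are from different mice, so a p-value measures only the spread between these libraries.

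Haemoglobin of the adult mouse pairs alpha chains with beta chains, and the embryonic chains are made by primitive erythroid cells of the yolk sac. In the adult, globin transcription rises steeply as erythroid progenitors mature, under GATA1, KLF1 and the TAL1 and LDB1 complex acting through distant enhancers. Cohesin, of which Smc3 is a subunit, folds chromatin into loops. Npm1, a protein of the nucleolus, is often mutated in acute myeloid leukaemia.

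The copies within each adult pair share nearly all of their sequence, which limits what a read can tell apart. Hba-a1 and Hba-a2 on chromosome 11 differed at 1 of 426 coding bases (C381T, counted from the A of the start codon). Hbb-bs and Hbb-bt on chromosome 7, the beta genes of the C57BL/6 haplotype, differed at 1 of 441 (C417T). The stretches around these differences are shown from the GENCODE M21 transcripts, from base 336 to base 425 for the alpha copies and from base 352 to base 441 for the beta copies, with the differing base in capitals.
Hba-a1: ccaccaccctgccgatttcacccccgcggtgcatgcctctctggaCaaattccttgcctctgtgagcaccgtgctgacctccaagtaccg
Hba-a2: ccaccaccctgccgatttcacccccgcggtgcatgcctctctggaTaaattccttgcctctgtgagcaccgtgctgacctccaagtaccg
Hbb-bs: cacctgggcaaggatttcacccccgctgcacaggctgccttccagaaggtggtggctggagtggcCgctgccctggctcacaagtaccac
Hbb-bt: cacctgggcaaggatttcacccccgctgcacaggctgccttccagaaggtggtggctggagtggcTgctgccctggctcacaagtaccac

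In the authors' deposited tables the Hbb-b1 row held the same values as the Hbb-bs row in all 3 comparisons, and the Hbb-b2 row the same values as the Hbb-bt row. The Hba-a1 and Hba-a2 rows were identical in the Npm1 and Double tables and differed by 1 read of 1 library in the Smc3 table. The 4 adult rows therefore hold 3 distinct sets of values, called measurements here: alpha (given as Hba-a1), Hbb-b1 and Hbb-b2. How reads were assigned between copies is not given in the sources used here, so the alpha values may be those of both copies together. For the same reason Hbb-b1 and Hbb-b2 may share reads, and their values may not be independent. The embryonic genes are less alike, with 63.9% of coding bases shared between Hba-a1 and Hba-x, 74.4% between Hbb-bs and Hbb-y, and 74.4% between Hbb-bs and Hbb-bh1.

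The promoters of the adult genes are shown because Hba-a1 and Hbb-b1 both fell in Smc3 and Double. That of Hbb-bt, whose row matched that of Hbb-b2, stands beside them. They are RefSeq windows on GRCm38.p6, 250 bases before to 50 bases after the start, and motif matches, searched on both strands, are in capitals. The KLF-type motifs were CACCC and the longer CCACACCC. The GATA-type motifs were AGATAA with its variant TGATAA, and the others were the CCAAT box and a TATA-type box read as ATAAA. CCACACCC contains CACCC, and ATTGG is CCAAT on the opposite strand. The windows are chr11:32283422-32283721 (plus strand) for Hba-a1, chr7:103827879-103828178 (minus strand) for Hbb-bs and chr7:103813874-103814173 (minus strand) for Hbb-bt.
Hba-a1: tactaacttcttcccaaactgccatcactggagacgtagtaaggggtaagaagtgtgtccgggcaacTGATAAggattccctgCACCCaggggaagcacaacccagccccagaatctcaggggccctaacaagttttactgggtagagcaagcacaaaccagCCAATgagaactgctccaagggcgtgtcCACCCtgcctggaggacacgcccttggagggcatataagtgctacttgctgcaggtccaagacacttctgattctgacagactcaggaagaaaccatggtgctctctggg
Hbb-bs: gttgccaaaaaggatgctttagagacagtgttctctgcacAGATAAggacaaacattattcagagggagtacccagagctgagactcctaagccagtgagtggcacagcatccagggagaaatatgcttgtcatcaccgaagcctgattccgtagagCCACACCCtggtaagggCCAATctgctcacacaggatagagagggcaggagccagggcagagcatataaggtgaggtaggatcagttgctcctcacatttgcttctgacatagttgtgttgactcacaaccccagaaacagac
Hbb-bt: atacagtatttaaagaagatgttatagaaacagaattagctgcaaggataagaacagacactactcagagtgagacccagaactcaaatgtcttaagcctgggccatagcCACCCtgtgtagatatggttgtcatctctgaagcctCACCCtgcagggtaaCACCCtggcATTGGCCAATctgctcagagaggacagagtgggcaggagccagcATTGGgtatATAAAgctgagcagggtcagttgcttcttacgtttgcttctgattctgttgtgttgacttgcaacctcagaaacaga

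CCACACCC, the KLF1 type of box, matched in the Hbb-bs window and in 3.56% of 32851 promoters, while the shorter CACCC matched in 57.5% of them and in all 3 windows shown. A GATA-type match was present as AGATAA in Hbb-bs (11.2% of promoters) and as TGATAA in Hba-a1 (9.05%), and neither was in the Hbb-bt window. CCAAT, found in 37.4% of promoters, matched once in Hba-a1 and in Hbb-bs and 3 times in Hbb-bt. ATAAA matched in Hbb-bt and in 40.0% of promoters. The Hba-a1 and Hbb-bs windows hold catataag, which that string cannot match. The lack of a match there therefore does not show that a TATA-type box is absent. These matches describe the letters and show no binding.

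Each library's scaling factor (size factor) was recovered from transcripts with single reads. Library depth was worked out as that factor times the summed mean over the kept genes of the table. This takes all libraries of a table to have the same normalized total, so the depths are estimates and not read totals. They were 10.2 to 22.0 M reads (M for mega) in WT, 19.8 to 51.6 in Smc3, 10.6 to 33.1 in Npm1 and 27.8 to 35.4 in Double. In the authors' deposited tables the Smc3 gene had a log2 fold change of -0.02 ± 0.11 (SE) in Smc3 and -0.03 ± 0.11 in Double, and the Npm1 gene 0.22 ± 0.16 in Npm1 and -0.06 ± 0.16 in Double, none with an adjusted p under 0.05, so transcript level does not check the labels. The summed mean of 4 Y-linked genes in the authors' deposited tables was 2022 normalized counts for Smc3, 2280 for Double and 3.80 for Npm1, so WT and Npm1 libraries had almost none and the reads came from Smc3 and Double libraries. The X-linked Xist RNA had means of 25443, 29831 and 27609 for Smc3, Npm1 and Double in the authors' deposited tables. Its log2 fold changes were -0.06, -0.03 and -0.06, none called, and the labels give no sex. The part of the Y-linked difference, and of the lower depth of WT, in the globin results was not tested. Kit, a marker of stem and progenitor cells, had means of 8121, 6073 and 7661 in the authors' deposited tables for Smc3, Npm1 and Double. It was not called in any, while other markers of the same list were, as given below.

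The adult alpha chain was lower than in WT in all 3 genotype groups. The deposited log2 fold changes behave as moderated values, which a fit pulls toward 0, the more so the larger their error. Undoing that pull left the authors' Wald statistics and p-values as they were and gave larger sizes, so both sizes follow. For Hba-a1 the authors' deposited table gave -0.84 ± 0.17 (SE) in Smc3 (DESeq2 adjusted p = 7.33e-05), and -0.97 ± 0.19 with the moderation undone, which is 51.0% of WT (95% interval 39.1 to 66.4). In Npm1 the authors' deposited table gave -0.53 ± 0.17 (DESeq2 adjusted p = 0.0156), and -0.62 ± 0.19 undone, or 65.1% of WT (50.03 to 84.8). In Double the authors' deposited table gave -1.20 ± 0.17 (DESeq2 adjusted p = 3.86e-10), and -1.36 ± 0.19 undone, or 38.9% of WT (29.9 to 50.6). The Double value was the lowest of the 3.

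Hbb-b1, the adult beta chain gene with the higher mean, fell in Smc3 and Double. The authors' deposited table gave -0.75 ± 0.20 in Smc3 (DESeq2 adjusted p = 0.00383), which is 51.8% of WT (36.8 to 72.9) with the moderation undone. In Double the authors' deposited table gave -0.999 ± 0.19 (DESeq2 adjusted p = 8.19e-06), or 44.0% of WT (32.4 to 59.9) undone. In Npm1 the authors' deposited table gave -0.33 ± 0.15 (DESeq2 adjusted p = 0.0947), or 77.4% of WT (62.0 to 96.7) undone, which did not pass the threshold of 0.05.

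Hbb-b2, the other adult beta chain gene, fell in Smc3 and did not pass the test in Npm1 or Double, and its value in Double was poorly determined. The authors' deposited table gave -0.54 ± 0.17 in Smc3 (DESeq2 adjusted p = 0.0225), or 64.7% of WT (49.0 to 85.4) with the moderation undone. In Npm1 the authors' deposited table gave -0.06 ± 0.16 (DESeq2 adjusted p = 0.82), or 95.3% of WT (74.4 to 122) undone. In Double the authors' deposited table gave -0.06 ± 0.26 (DESeq2 adjusted p = 0.912), or -0.12 ± 0.50 undone, 92.0% of WT with an interval of 46.5 to 182. That interval includes the 64.7% seen in Smc3 and the whole range from less than the WT level to more than it, so the Double value does not show that Hbb-b2 kept its level. Its deposited standard error exceeded that of 99.7% of genes (counting those whose mean reached 50) and lay close to the table's highest value, 0.263, which is the ceiling that moderation sets.

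**Figure D1:**
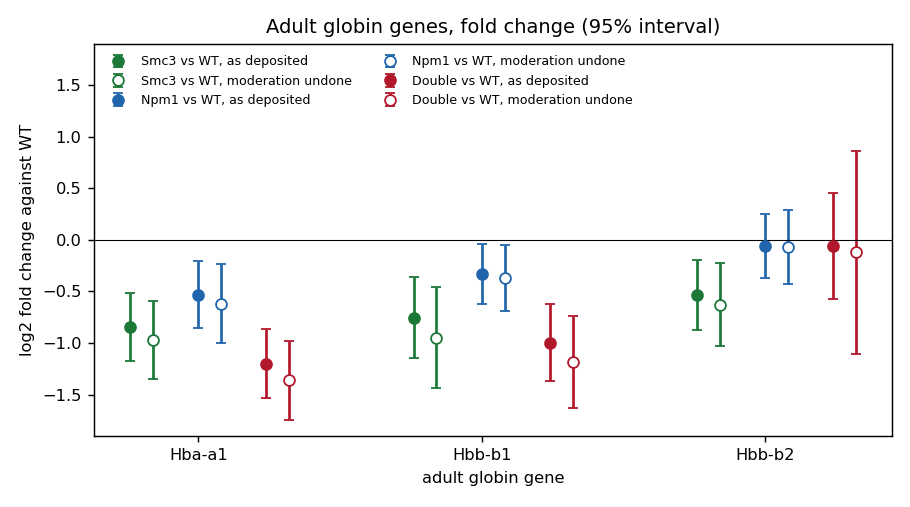
Log2 fold change against WT (y axis) of the adult globin genes (x axis) in the 3 comparisons, with 95% intervals. Filled points are as deposited and open points have the moderation undone. Hba-a1 lies below 0 throughout, and the open interval of Hbb-b2 in Double runs from -1.10 to 0.86.

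**Figure D2:**
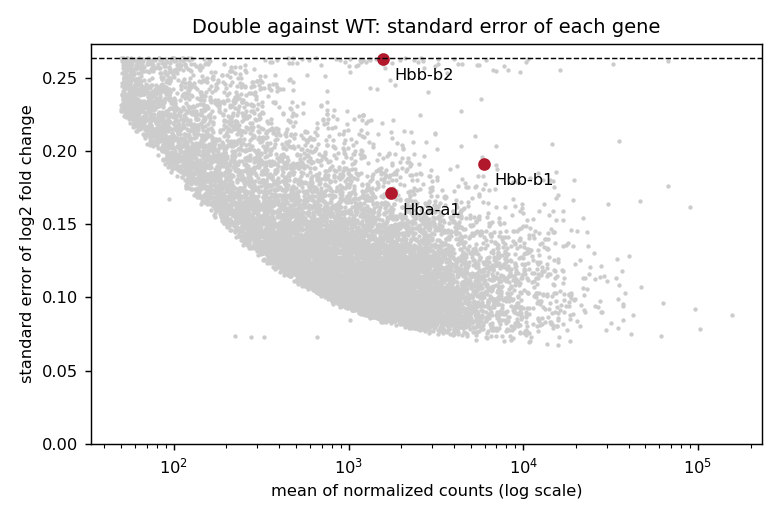
Deposited standard error of the log2 fold change (y axis) against the mean of normalized counts (x axis, log scale) for genes with a mean of at least 50 in Double against WT, grey, with 3 adult globin measurements in red. The dashed line marks the highest error among them, where Hbb-b2 lies.

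Counted as rows, 4 of 4 adult genes were lower in Smc3, where 6.6% of 12749 genes tested were called lower and 7.94% higher. In Npm1 it was 2 of 4, against 9% lower and 9.1% higher of 12323. In Double it was 3 of 4, against 9.81% lower and 8.87% higher of 13216. Counted as measurements, of which Hbb-b1 and Hbb-b2 may share reads, they were 3, 1 and 2 of 3, and no member was called higher. The median deposited log2 fold change of the 3 measurements was -0.75, -0.33 and -0.999 in Smc3, Npm1 and Double, beside medians near 0 over all genes tested. Among genes with a mean of at least 50, 0.205% had a lower fold change than Hba-a1 in Smc3, 5.67% in Npm1 and 0.402% in Double. In bulk RNA, fewer erythroid cells and less globin RNA per cell cannot be told apart.

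Group levels were worked out from each mean and fold change, since the tables hold no value per library and the adult genes' reads in each library could not be solved from them. With the moderation undone and on the scale of the Smc3 table, Hba-a1 stood at 2462 normalized counts in WT, 1255 in Smc3, 1606 in Npm1 and 957 in Double. Hbb-b1 stood at 8033, 4162, 6223 and 3535 in the same order, so Double was lowest and Npm1 nearest to WT for both genes. Hbb-b2 stood at 1607, 1040, 1533 and 1474. The WT level came out the same from all 3 tables within 0.143% for Hba-a1, 0.0851% for Hbb-b1 and 0.448% for Hbb-b2, against 0.984%, 3.78% and 2.42% with the deposited fold changes. Those deposited fold changes gave smaller distances, with Hba-a1 going from 2385 to 1332 in the Smc3 table, from 1904 to 1319 in the Npm1 table and from 2452 to 1068 in the Double table, each on its own scale.

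**Figure D3:**
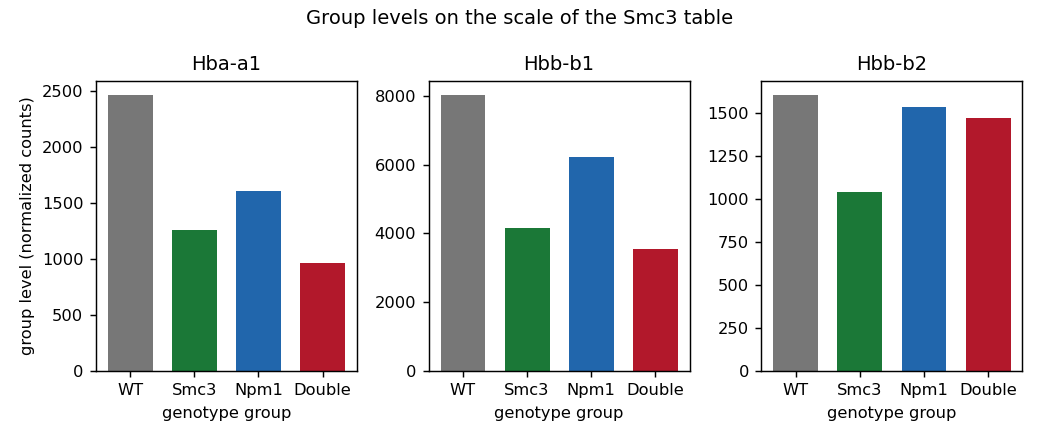
Level of each adult globin gene (y axis, normalized counts on the scale of the Smc3 table, moderation undone) in each genotype group (x axis). The bars hold 1 worked-out value a group and carry no error; Hba-a1 and Hbb-b1 are lowest in Double.

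Hbb-b2 made up 16.7% of the beta level in WT, 19.99% in Smc3, 19.8% in Npm1 and 29.4% in Double with the moderation undone (WT from the Smc3 table). The Double share rests on the imprecise Hbb-b2 value and has no test. How reads were split between Hbb-b1 and Hbb-b2 is not known, and these shares are not adjusted for transcript length. They therefore may not be the ratio of the genes' RNA in any group. With the deposited fold changes it was 19.2% in Smc3, 19.6% in Npm1 and 28.1% in Double. Per kilobase of transcript, with the deposited fold changes, the WT level in the Smc3 table was 12188 for Hbb-b1, 2228 for Hbb-b2 and 3412 for Hba-a1 with its 699-base model, or 4305 with the 554-base model of Hba-a2; the lengths of the beta genes are those of Hbb-bs and Hbb-bt. The 3 measurements together took 0.0449%, 0.0493% and 0.0435% of all normalized counts in the Smc3, Npm1 and Double tables.

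The genotype groups were then set against each other through their fold changes. Hba-a1 was lower in Double than in Npm1 by -0.67 ± 0.24 on the deposited log2 scale (95% interval -1.14 to -0.20), with a z test adjusted p of 0.0644. Hbb-b1 gave -0.67 ± 0.24 (z test adjusted p = 0.0679), so neither passed over all 18341 genes, of which 6.99% did (2.9% lower and 4.09% higher in Double). Among genes with a mean of at least 50 the adjusted p was 0.0395 for Hba-a1 and 0.0416 for Hbb-b1, and with the moderation also undone 0.0491 and 0.0319 for differences of -0.74 ± 0.27 and -0.81 ± 0.28. Both also passed over all 18341 genes when the variance share of the common WT libraries, taken as 0.5 of each squared error, was removed (z test adjusted p = 0.00094 for Hba-a1 and 0.00107 for Hbb-b1). The call for these genes therefore turned on the genes adjusted over and on how the shared WT libraries were treated. Hbb-b2 gave -0.00 ± 0.31 for Double minus Npm1 (-0.60 to 0.60), or -0.05 ± 0.53 undone.

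Between Double and Smc3 no adult globin gene passed, with 0.262% of 18727 genes called (0.182% lower and 0.0801% higher in Double). The deposited difference was -0.36 ± 0.24 for Hba-a1 (-0.83 to 0.11), -0.25 ± 0.28 for Hbb-b1 (-0.79 to 0.30) and 0.47 ± 0.32 for Hbb-b2 (-0.15 to 1.09). Between Smc3 and Npm1, where 13.9% of 18280 genes were called (6.36% lower and 7.57% higher in Smc3), the differences were -0.31 ± 0.24 for Hba-a1, -0.42 ± 0.25 for Hbb-b1 and -0.48 ± 0.24 for Hbb-b2 (z test adjusted p = 0.478, 0.283 and 0.18). With the WT share of variance taken out, Hbb-b2 passed (z test adjusted p = 0.018). Double minus the sum of the single groups gave 0.17 ± 0.29 for Hba-a1 (-0.40 to 0.74), 0.08 ± 0.31 for Hbb-b1 (-0.53 to 0.70) and 0.53 ± 0.35 for Hbb-b2 (-0.16 to 1.23). No gene of 18145 passed that z test after adjustment, and 265 had an unadjusted p under 0.05. All of these comparisons share the WT libraries.

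The embryonic genes were near the limit of detection, and their reads could be recovered per library. Hba-x, the zeta chain gene, had 4, 2 and 2 reads in the WT libraries, 0, 1 and 0 in Smc3, 0, 0 and 1 in Npm1 and 0 in each of the Double libraries. Every WT library thus held more reads than any other library although WT was the shallowest group. As reads per M reads of a library, the lowest WT library (0.0963) and the highest Npm1 library (0.0948) nearly met. The depth of that WT library came out as 20.8 M from the Smc3 table, used here, and as 22.0 M from the Npm1 table. Which of the pair stood higher is therefore not settled. Pooled, WT had 8 reads in 45.2 M, or 1.77 per 10 M (exact Poisson 95% interval 0.764 to 3.49), and the other 9 libraries had 2 reads in 257 M. Double had 0 reads in 95.1 M, which allows up to 0.315 per 10 M (3 reads over the group), and the WT level was 5.61 times that limit. The lower end of the WT interval was 2.42 times the same limit. The exact Poisson 95% upper end for Double was higher than that limit, at 0.388 per 10 M. A bound from the 2 exact intervals would therefore be smaller. Without the WT library that held 4 of the 8 reads, WT had 4 reads in 35.0 M, or 1.14 per 10 M, which is 3.63 times the limit. Intervals and floors cover counting error only and take the estimated depths as exact. The authors' deposited table gave log2 fold changes of -0.28, -0.18 and -0.34 in Smc3, Npm1 and Double (DESeq2 unadjusted p = 0.0546, 0.153 and 0.0281), with no adjusted p.

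Hbb-bh1, an embryonic beta-like gene, had 0 reads in each WT library, 1, 0 and 0 in Smc3, 0, 1 and 0 in Npm1 and 0, 1 and 2 in Double. Hbb-y, the epsilon-type gene, had 0, 1 and 0 reads in WT, 4, 0 and 0 in Smc3, 0, 2 and 1 in Npm1 and 1, 2 and 1 in Double. The groups overlapped for both genes, and no difference was detectable at this depth.

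**Figure D4:**
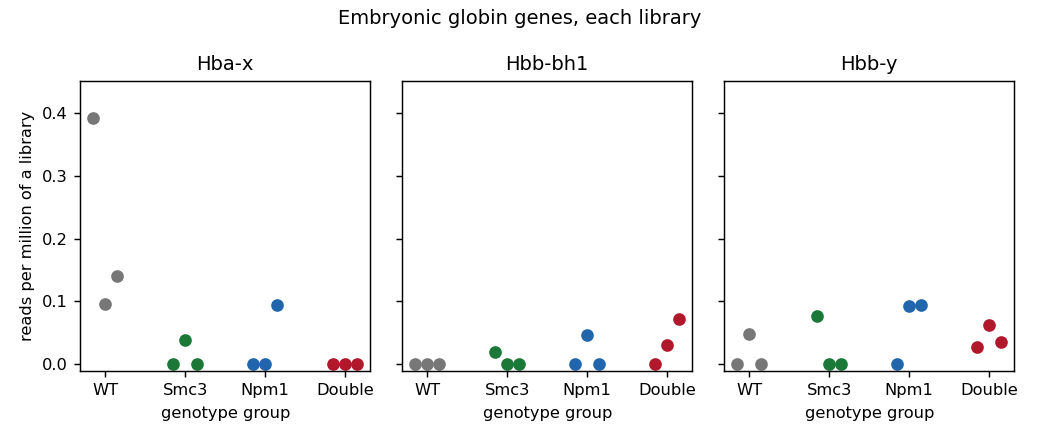
The y axis shows reads per M reads (RPM) for the embryonic globin genes in each of the 12 libraries, by genotype group (x axis), 1 point a library. Hba-x reaches 0.391 in WT and is at 0 in all Double libraries.

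For the making of haem and the handling of iron, 8 of 19 genes fell in Smc3 and none rose. In Npm1 1 fell and 5 rose, and in Double 10 fell and none rose. Median log2 fold changes were -0.34, 0.05 and -0.52 in Smc3, Npm1 and Double, beside medians near 0 for all genes. Of all genes tested, 6.6%, 9% and 9.81% were called lower in the same order. The shares called higher were 7.94%, 9.1% and 8.87%. Here and in the lists below, 1 gene called is near those shares. Alas2, the erythroid enzyme that starts haem synthesis, fell in all 3 groups, with -0.69, -0.72 and -1.29 in the authors' deposited tables for Smc3, Npm1 and Double. Urod, a later enzyme, fell in Smc3 (-0.49) and Double (-0.89) in the authors' deposited tables, and Npm1 had -0.18. Blvrb, a biliverdin reductase, fell likewise, with -0.49 and -0.90 in the authors' deposited tables. Cpox, a mitochondrial enzyme of the pathway, rose in Npm1 (0.52) in the authors' deposited table, as did the iron reductase Steap3 (0.44).

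Of 17 genes of the red cell membrane and its skeleton, 7 fell in Smc3, 2 fell and 3 rose in Npm1, and 15 fell in Double, with medians of -0.38, 0.13 and -0.59. Slc4a1, the band 3 anion exchanger, fell in all 3 groups, with -0.997, -0.52 and -1.14 in the authors' deposited tables. Dmtn, an actin-bundling protein, fell too, with -0.58, -0.50 and -1.17 in the same order in the authors' deposited tables. Epb4.2 fell in Smc3 (-0.62) and Double (-0.96) in the authors' deposited tables, as did the blood group gene Rhd (-0.56 and -1.03). Rhag, its partner in the membrane, rose in Npm1 (0.78) in the authors' deposited table and had -0.13 and 0.07 in Smc3 and Double. Sptb, the erythroid beta spectrin, fell in Smc3 (-0.52) and Double (-0.59) and rose in Npm1 (0.26) in the authors' deposited tables. Epb4.1, the band 4.1 protein of the skeleton, rose in Npm1 (0.34) and fell in Double (-0.36) in the authors' deposited tables.

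Among 13 erythroid enzymes and clearance genes, 5 fell in Smc3, 1 fell and 3 rose in Npm1, and 6 fell in Double, with medians of -0.31, 0.01 and -0.50. Rhd stands in this list as well as in that of the membrane and is counted in both. The carbonic anhydrases Car1 (0.61) and Car2 (0.53) rose in Npm1 in the authors' deposited table. Prdx2, an abundant peroxidase of red cells, fell in Smc3 (-0.36) and Double (-0.52) in the authors' deposited tables, as did Trim10 (-0.53 and -0.67). Fam46c fell in Smc3 (-0.70) and Tspo2 in Double (-0.70) in the authors' deposited tables. Xpo7, a nuclear export factor, fell in Npm1 (-0.59) in the authors' deposited table.

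Of 15 genes listed as activators of globin genes or related factors, 3 fell and 1 rose in Smc3. In Npm1 5 fell and 1 rose, and in Double 8 fell. The medians were -0.22, -0.11 and -0.50 in Smc3, Npm1 and Double. The list is broad, and Epor, E2f2, Tfdp2 and Bach1 in it are not direct activators. Klf1, which drives adult beta globin, fell in Smc3 (-0.53) and Double (-0.74) in the authors' deposited tables and had 0.05 in Npm1. Zfpm1, the GATA1 cofactor FOG1, fell likewise (-0.56 and -0.81) in the authors' deposited tables. Mafk, a small partner of NF-E2, fell in all 3 groups, with -0.58, -0.29 and -0.56 in the authors' deposited tables. E2f2 fell in Npm1 (-0.47) and Double (-0.67) in the authors' deposited tables. Gata1 fell in Double (-0.53) in the authors' deposited table, as did the erythropoietin receptor Epor (-0.78), both named after their values were seen. Tal1 rose in Npm1 (0.33) in the authors' deposited table, and Ldb1 fell in Npm1 (-0.28) and Double (-0.63). Of 15 regulators of the switch from embryonic to adult beta chains, 1 fell in Smc3, 2 rose in Npm1 and 3 fell in Double. The first 2 counts are near the shares of all genes called in those directions, 6.6% lower in Smc3 and 9.1% higher in Npm1, and the share lower in Double was 9.81%. Bcl11a, a repressor of embryonic and fetal globin, rose in Npm1 (0.27) in the authors' deposited table, and Zbtb7a, another, fell in Double (-0.39). Mbd2, a methyl-DNA binding protein, rose in Npm1 (0.35) in the authors' deposited table. Mta2 fell in Smc3 (-0.25) and Double (-0.39) and Kdm1a, a histone demethylase, in Double (-0.29) in the authors' deposited tables, while Chd4 and Ikzf1 were not called.

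**Figure D5:**
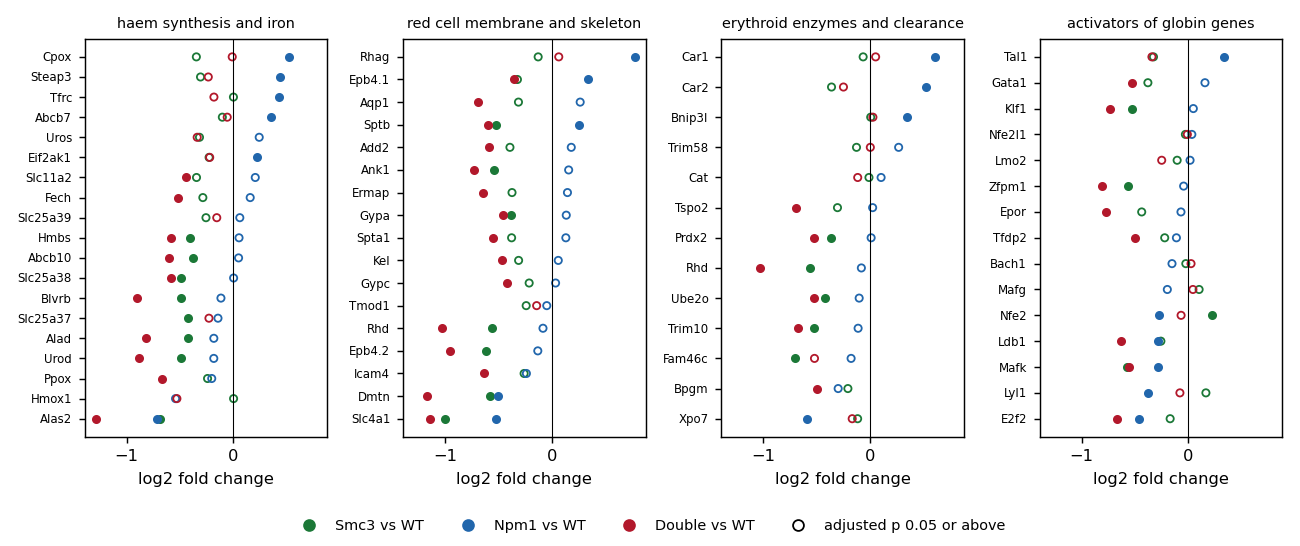
Deposited log2 fold change (x axis) of each gene of 4 lists (y axis, ordered by the value in Npm1) in the 3 comparisons with WT. Filled points had an adjusted p under 0.05; most Smc3 and Double points lie below 0, and Npm1 points lie on both sides.

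Genes beside the alpha globin cluster gave counts near the share of all genes called, which was 14.5%, 18.1% and 18.7% in Smc3, Npm1 and Double. Of 7 tested, none was called in Smc3 or Double and 1 fell in Npm1 (Sh3pxd2b, -0.84 in the authors' deposited table). Nprl3, whose introns hold the alpha globin enhancers, had 0.20, 0.04 and -0.08 in Smc3, Npm1 and Double in the authors' deposited tables, none called. Nor were Snrnp25, Mpg and Rhbdf1, with values between -0.18 and 0.37 in the authors' deposited tables. Of other globin fold genes, Cygb, Ngb and Hbq1a had no adjusted p, and Hbq1b was the only one tested. Hbq1b, a theta globin gene beside the alpha copies, had 10, 22 and 17 reads in WT, 54, 14 and 6 in Smc3, 17, 18 and 12 in Npm1 and 15, 16 and 10 in Double. As reads per M reads its WT libraries ran from 0.976 to 1.20 and its Double libraries from 0.359 to 0.501 without overlap, and the authors' deposited table gave a DESeq2 adjusted p of 0.055 in Double.

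Markers of other blood cells were read beside these lists. Of all genes tested, 7.94%, 9.1% and 8.87% were called higher in Smc3, Npm1 and Double. The shares called lower were 6.6%, 9% and 9.81%. In marker lists this short, 1 gene called is near those shares. Of 10 neutrophil markers, 3 of 5 with an adjusted p rose in Smc3, 0 of 5 in Npm1 and 4 of 4 in Double, and those that rose were among the primary granule genes Mpo, Elane, Prtn3 and Ctsg. The late granule and maturation genes Camp, Ltf, Ngp, S100a8, S100a9 and Mmp8 had values below 0 in all 3 of the authors' deposited tables (in Double from -0.62 to -0.52). Camp, Ltf, Ngp and Mmp8 had no p in any table, so they could not be called and their values are untested. S100a8 had a p only in Smc3 and S100a9 only in Npm1, and neither was called there. Of basophil and mast cell markers 5 of 5 rose in Smc3, 3 of 5 fell in Npm1 and 1 of 5 rose in Double. Megakaryocyte markers rose for 3, 1 and 1 of 7, and monocyte markers for 1, 0 and 2 of 5. Of stem and progenitor markers, 3 of 7 rose in Smc3 and 3 of 7 in Double, and 1 of 6 tested fell in Npm1. No B cell marker was called except 1 lower in Double, and T and NK cell markers gave 2 higher in Smc3, 1 lower in Npm1 and 1 higher in Double. Cd34, a marker of early progenitors, rose in Smc3 (0.62) and Double (0.43) and fell in Npm1 (-0.69) in the authors' deposited tables. The part of the cell mixture in the globin values was not tested.

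Over 10692 genes with a mean of at least 50, the genes whose 3 deposited log2 fold changes lay nearest to those of Hba-a1 were Lmcd1 (distance 0.106), Rag1 (0.137), Slc4a1 (0.166), Clstn3 (0.17) and Il1b (0.211). For Hbb-b1 they were Cd36 (0.14), Rag1 (0.184), Scd1 (0.192), Tgm2 (0.211) and 4930515G01Rik (0.211). The distance is over 3 comparisons that share WT and says nothing of common control.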

How the data were processed

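The submitters' processing notes name STAR, build mm9 and DESeq2 for the 12 HSPC libraries; the read counter is not given in the sources used here. Per the labels' protocols, libraries were poly(A) selected. The authors deposited 3 tables against WT with 33018 transcripts each. The signal is the mean of normalized counts over 6 libraries, per the file headers. The log2 fold changes and standard errors were made by the authors and, read from the values, are moderated toward 0. The score is the authors' deposited Wald statistic. The p-values and adjusted p-values are the authors' deposited ones.

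For each symbol the transcript with the highest mean was kept. Differences between genotype groups used a two-sided z test with summed squared standard errors, Benjamini-Hochberg adjusted over all genes. The moderation was undone after the data were seen: under a normal prior the standard error has a ceiling, found here at 0.246, 0.238 and 0.263 in the Smc3, Npm1 and Double tables, which gives the pull on each estimate. Size factors came from transcripts with single reads, and library depths and low read counts were worked out from them. All 3259, 3078 and 3428 transcripts with a mean above 0 and under 0.6 in the Smc3, Npm1 and Double tables came out as whole reads (relative tolerance 1e-09). These include the transcripts that gave the factors. The steps were tested on simulated data. Named genes are the members, the 3 genes with the smallest p of each pathway list and table, and the 5 nearest genes by fold change; Kit, Gata1, Epor and the late neutrophil genes were added after their values were seen, and Nprl3 and Hbq1b lie nearest the alpha genes. Members and lists were chosen with earlier results of these data known. Sequences came from RefSeq and GENCODE M21. Python 3.11.15 with numpy 2.4.6, scipy 1.17.1 and pandas 2.3.3 was used.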

Additional observations from a re-analysis of the deposited data

How the results depend on the processing

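No paired analysis was possible because the tables hold no values per library; for the same reason the replicate block and leaving out each replicate in turn were not run. Each member has 1 transcript, so a second transcript was not tried, and the WT share of the variance was not removed for Double minus the sum. Of 90 alternatives to a tested value, 81 kept the direction and the side of the threshold. Of 57 alternatives to a count, 46 gave the same count and 6 another within 1.5 times, such as 3 to 2 adult measurements in Smc3 at a threshold of 0.01. Of 24 alternatives to a median or share with no test, 21 moved by less than the median standard error. Each of these 21 only took the table's median fold change (-0.016 in Smc3, 0.037 in Npm1 and 0.003 in Double) from a list median. That shift was too small for any list to move further, so these 21 test nothing. At a threshold of 0.01, Hbb-b2 in Smc3 (-0.54) and Hba-a1 in Npm1 (-0.53) no longer passed, and the adult measurements called in Npm1 went from 1 to 0. With Benjamini-Hochberg adjustment over all kept genes, activators called higher in Smc3 went from 1 to 0, switch regulators called lower in Smc3 from 1 to 0, membrane genes called lower in Npm1 from 2 to 1 and switch regulators called higher in Npm1 from 2 to 1. Over all transcript rows the members' share of normalized counts was 0.0355%, 0.0388% and 0.0341% in the Smc3, Npm1 and Double tables, against 0.0539%, 0.0587% and 0.0517% over kept genes, because the total then holds every transcript. Once the variance share of WT was taken out, Double minus Npm1 passed for Hba-a1 (-0.67, z test adjusted p = 0.00094) and Hbb-b1 (-0.67, z test adjusted p = 0.00107), and Smc3 minus Npm1 for Hbb-b2 (-0.48, z test adjusted p = 0.018). With genes of a mean of at least 50, Double minus Npm1 passed for Hba-a1 (-0.67) and Hbb-b1 (-0.67), and with the moderation also undone, an alternative chosen after seeing the data, for Hba-a1 (-0.74) and Hbb-b1 (-0.81). Removing the WT share moved the genes called from 1282 to 3797 for Double minus Npm1, from 49 to 268 for Double minus Smc3 and from 2546 to 5627 for Smc3 minus Npm1. Undoing the moderation moved the standard error of Hbb-b2 in Double from 0.26 to 0.50. Against WT it kept the authors' adjusted p-values, so no call could change. The 12 alternatives of that kind are among the unchanged ones counted above and test nothing.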
